A study of Schizosaccharomyces pombe with 30 samples.

Results

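The spliceosome snRNA genes are the 6 genes that the RefSeq annotation of *S. pombe* gives the biotype snRNA on chromosomes I, II and III. They are *snu1*, *snu2*, *snu4*, *snu5* and *snu6*, which encode the U1, U2, U4, U5 and U6 snRNAs, and *snR48*. Each gene was taken on its own strand from its start to 250 nt after its annotated 3′ end, and 35 of the 15824 Seb1 crosslink sites of the library lie there. The product annotated for *snR48* is a small non-coding RNA and not a spliceosomal U RNA. In *S. cerevisiae* the RNA of this name is a box C/D guide RNA of rRNA methylation. Values are therefore also given for the 5 U RNA genes without it.

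The sites come from PAR-CLIP, in which cells take up 4-thiouracil and bound proteins are crosslinked to the labelled uridines of their RNA with long-wave UV light. A crosslinked uridine is read as C, so that a T-to-C transition marks the contacted base. The cells were *h-* and carried *seb1::seb1-TAP::KanMX*, the TAP tag being used for the immunoprecipitation. Cultures at 30 °C received uracil (10 mg per litre), glucose (4%) and 4-thiouracil, at 100 µM and then with 900 µM more for 4 h, and were irradiated with 12 J per cm2 at 365 nm. The crosslinked RNA was partly digested with RNase T1, which cuts after G. The occupancy in the site list was normalised with RNA-Seq of *h-* cells without the tag, labelled in the same way. For these cells the paper's methods give a lower UV dose, 1 J per cm2, and depletion of rRNA. There was 1 PAR-CLIP library of 1 condition and no untagged PAR-CLIP control was analysed here, so no test between conditions was possible and intervals cover counting error only.

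Seb1 carries an RNA-recognition motif and a domain that binds the C-terminal domain of RNA polymerase II (Pol II), and takes part in transcription termination. The U snRNAs form the core of the spliceosome. U1 pairs with the 5′ splice site of an intron and U2 with its branch site, U5 contacts the exons, and U4 pairs with U6, which later joins the catalytic centre. U1, U2, U4 and U5 are made by Pol II and processed from longer 3′-extended precursors, whereas U6 is made by RNA polymerase III. A site inside the annotated RNA can thus lie on the mature snRNA or on its precursor, and a site after the annotated 3′ end only on extended RNA or on another transcript of that strand.

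Each site is given by its reads with the transition and its covering reads. Reads are given only at sites, so a stretch without a site may lack contact or lack reads. Over the whole list the medians were 2 transitions and 13 reads. Within the snRNA genes coverage ran from 5 to 8203 reads, and 31 of the 35 sites had at least the median coverage. All 15789 nuclear sites fell on a T of their strand in the reference used for coordinates (ASM294v3), and each of the 6 RNA sequences occurs once in that genome.

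The 6 RNAs are shown whole from RefSeq, 5′ to 3′, with every crosslinked base in capitals, because the place of the sites within them differed between the genes. U6 is shown with its intron, bases 47 to 96, which counts as part of the RNA in all shares below. Their loci are chrII:3020205-3020353 (plus strand, *snu1*), chrI:959370-959556 (minus, *snu2*), chrII:467489-467615 (minus, *snu4*), chrII:3236867-3236986 (plus, *snu5*), chrI:2562276-2562419 (minus, *snu6*) and chrII:4239161-4239235 (minus, *snR48*).
U1 (snu1): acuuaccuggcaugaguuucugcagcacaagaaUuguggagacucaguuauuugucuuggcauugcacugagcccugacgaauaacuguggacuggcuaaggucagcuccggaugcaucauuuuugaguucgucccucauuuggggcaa
U2 (snu2): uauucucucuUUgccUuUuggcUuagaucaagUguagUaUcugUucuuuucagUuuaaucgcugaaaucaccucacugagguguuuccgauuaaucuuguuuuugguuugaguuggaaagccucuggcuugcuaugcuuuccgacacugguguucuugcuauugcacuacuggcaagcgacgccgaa
U4 (snu4): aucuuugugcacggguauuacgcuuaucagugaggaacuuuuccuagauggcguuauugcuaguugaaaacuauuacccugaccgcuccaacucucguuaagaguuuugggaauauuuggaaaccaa
U5 (snu5): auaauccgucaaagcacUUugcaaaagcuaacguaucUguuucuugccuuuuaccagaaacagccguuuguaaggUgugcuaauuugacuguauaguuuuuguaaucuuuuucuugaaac
U6 (snu6): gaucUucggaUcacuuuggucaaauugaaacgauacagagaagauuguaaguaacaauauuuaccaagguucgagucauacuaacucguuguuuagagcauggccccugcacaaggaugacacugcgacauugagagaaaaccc
snR48: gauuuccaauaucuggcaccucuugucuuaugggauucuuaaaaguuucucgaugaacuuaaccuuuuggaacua
Capitals stand mostly towards the 5′ ends of U1, U2, U5 and U6, and U4 and snR48 have none.

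Inside the annotated RNAs lay 17 sites, 10 of them in U2, 4 in U5, 2 in U6, 1 in U1 and none in U4 or snR48. Thus 4 of the 6 genes had a site in the RNA, while 35.7% of all 12574 annotated nuclear genes had one in the gene. After the 3′ end lay 18 sites in 5 genes, against 14.9% of all genes with a site there. Counted together, all 6 genes had at least 1 site and 40.3% of all genes did. The genes differ in length (median 136 nt for the snRNA genes and 1773 nt for protein-coding genes), so these shares describe the list and are not levels. Of the 66 snoRNA genes, the small non-coding RNAs of similar length, 45 had a site in the gene and 45 a site after it.

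**Figure D1:**
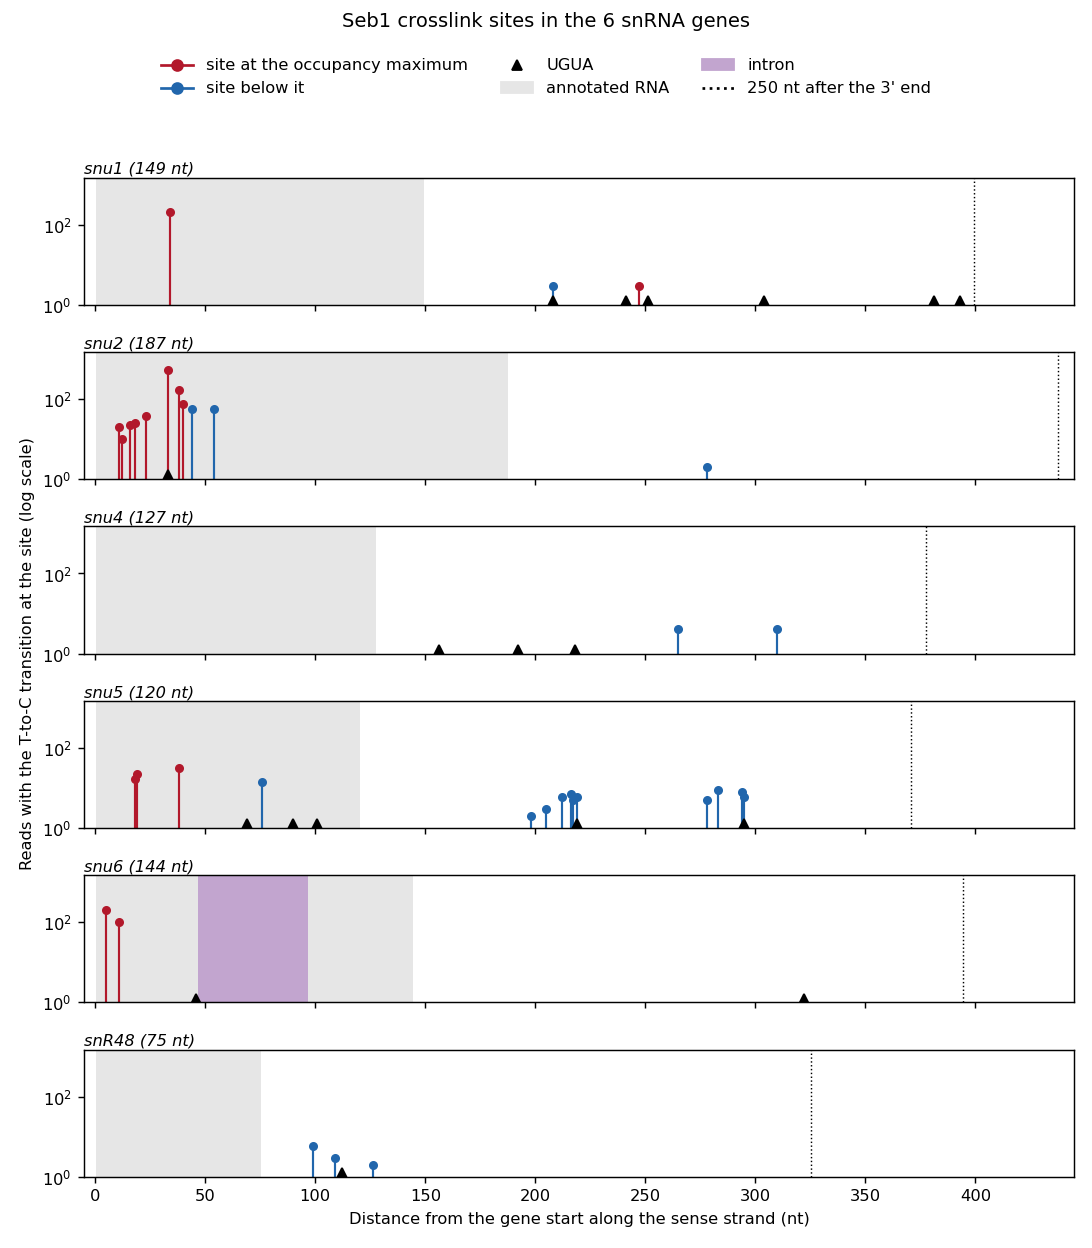
Sites in the 6 snRNA genes, 1 panel for each gene; the x axis is the distance from the gene start in nt, the height of a stem is the number of reads with the transition on a log scale, red stems are sites at the occupancy maximum and triangles are UGUA. The stems inside the annotated RNAs (grey) reach 545, those after the 3′ end at most 9, and *snu4* and *snR48* have stems after the 3′ end only.

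U2 carried most of the signal, with 10 of its 73 uridines crosslinked (13.7%, 95% Wilson interval 7.61 to 23.4%) and 1012 of the 1601 transitions counted in the snRNAs. By summed transitions *snu2* ranked 11 of 12574 genes. The highest site of the class was uridine 33 of U2, with 545 transitions in 2080 reads (26.2%, interval 24.4 to 28.1%), rank 22 of 15789 nuclear sites by transitions. Uridine 33 directly precedes the GUAGUA at bases 34 to 39, the stretch of U2 that pairs with the branch site. Within GUAGUA, uridine 38 had 165 transitions in 2262 reads (7.29%, interval 6.29 to 8.44%), and uridine 40 just after it had 74 in 2287 reads (3.24%, interval 2.59 to 4.04%). These 3 sites in or next to GUAGUA hold 784 of the transitions of U2, but only 1 of them, uridine 38, lies within it. The other uridine of GUAGUA had no site, and its coverage is not given.

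The other 7 sites in U2 had fewer transitions. Before uridine 33, the counts of transitions were 20 at uridine 11, 10 at 12, 23 at 16, 25 at 18 and 38 at 23, in 342 to 1298 reads. After uridine 40, there were 57 transitions at uridine 44 and 55 at 54, in 2256 and 2015 reads. Coverage from uridine 33 to uridine 54 lay between 2015 and 2287 reads, so the transitions there ran from 55 to 545 at nearly equal depth. Beyond uridine 54 U2 had no site. The sequence holds uridines there too, but their coverage is not given. *snu2* starts 236 nt after the 3′ end of a lncRNA gene on the same strand, which had no site. Uridines 11 and 12 thus also lie 246 and 247 nt after that lncRNA gene.

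**Figure D2:**
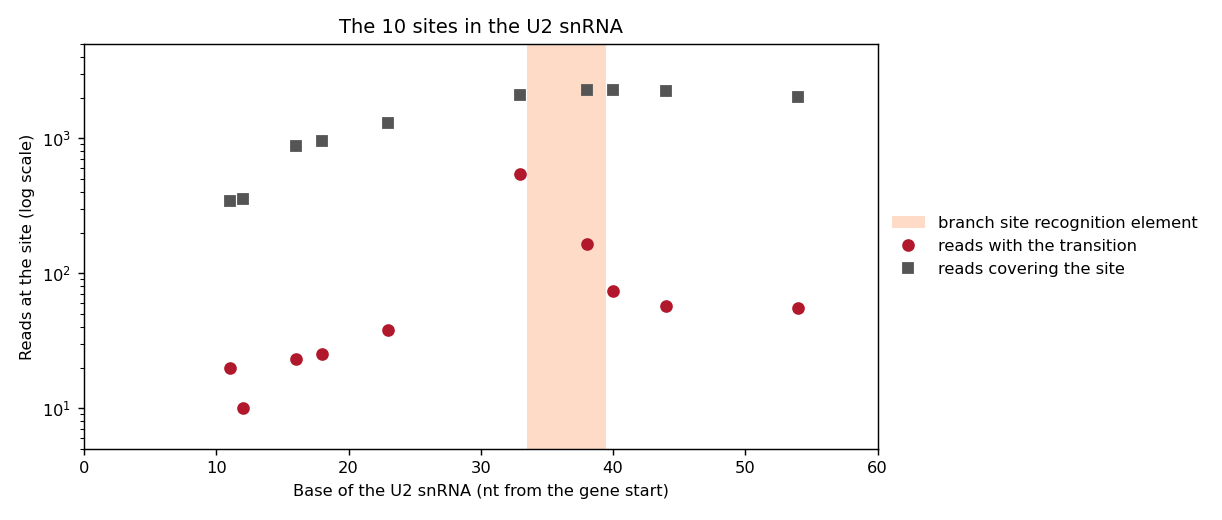
Reads at the 10 sites of U2 by base of the RNA (x axis, nt from the gene start) on a log scale; red circles are reads with the transition, grey squares are reads covering the site and the shaded band is GUAGUA, bases 34 to 39. Red circles peak at base 33 with 545, while the squares stay between 2015 and 2287 from base 33 to base 54.

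U1 had a single site, uridine 34, with 208 transitions in 8203 reads, 2.54% of them (interval 2.22 to 2.90%). By coverage this was the site of rank 4 in the nuclear list. The ACUUAC at bases 1 to 6 of U1, which pairs with the 5′ splice site, had none. *snu1* also starts 212 nt after the 3′ end of the protein-coding gene *gpt2* on the same strand, which had no site.

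U6 had 2 sites close to its 5′ end, uridine 5 with 197 transitions in 4115 reads (4.79%, interval 4.18 to 5.48%) and uridine 11 with 99 in 4177 reads (2.37%, interval 1.95 to 2.88%). *snu6* is split in *S. pombe* into exons of 46 and 48 nt around an intron of 50 nt, and both sites lie in the first exon. The ACAGAG at bases 35 to 40, the box of U6 that contacts the 5′ splice site, had no site, nor did the intron, the second exon or the 250 nt after the gene. Just outside the chosen region, 1 nt before the gene start, lay 1 more site with 3 transitions in 32 reads. *snu6* starts 58 nt after the 3′ end of *cwf21*, a splicing factor gene on the same strand, so that these uridines also lie 62 and 68 nt after that gene. The 3 sites in *cwf21* itself reached 3 transitions and 11 reads. Whether the 2 sites come from U6 or from extended *cwf21* RNA was not tested.

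U5 had 4 sites with 85 transitions in all, below the 1012 of U2, the 296 of U6 and the 208 of U1. Uridine 18 had 17 transitions in 276 reads, uridine 19 had 22 in 279, uridine 38 had 32 in 609 and uridine 76 had 14 in 558. The transition shares were 6.16%, 7.89%, 5.25% and 2.51%. The interval of the first (3.88 to 9.64%) overlaps those of the other 3. The intervals of uridines 19 and 76 do not overlap, as that of uridine 19 starts at 5.26% and that of uridine 76 ends at 4.17%. The CCUUUUA at bases 47 to 53, in the loop of U5 that contacts the exons, had no site, and the coverage of its uridines is not given.

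U4 and snR48 had no site in 42 and 29 uridines. *snu4* is overlapped on the other strand by a lncRNA, as are *snu1* and *snu5*. The protein-coding gene *met17*, also on the other strand, overlaps the window of *snu4* from 242 nt after its 3′ end, and a second lncRNA that of *snu1* from 173 nt. On the strand opposite to the 6 genes no site was called in the genes or in the 250 nt after them.

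Of the 17 sites in the snRNAs, 16 lay 5′ of the middle base of their gene and 1, uridine 76 of U5, lay 3′ of it. Per uridine, 11.3% (interval 7.11 to 17.6%) of 141 uridines in the 5′ parts had a site and 0.769% (0.136 to 4.23%) of 130 in the 3′ parts. In 50 snoRNA genes that overlap no other snoRNA gene on their strand, the shares were 2.70% (1.95 to 3.73%) in the 5′ parts and 2.80% (2.03 to 3.85%) in the 3′ parts. This split was chosen after the positions were seen, and 10 of the 16 sites belong to U2. Coverage of uridines without a site is not given, so these shares do not separate missing contact from missing reads. Without U2 the shares were 5.94% (2.75 to 12.4%) in the 5′ parts and 1.03% (0.182 to 5.61%) in the 3′ parts, and these intervals overlap.

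The sites after the 3′ ends are shown with 12 nt on each side of the outermost sites, again with crosslinked bases in capitals, because they are much shallower than the sites in the RNAs. The stretches are chrII:3020400-3020463 (plus, *snu1*), chrI:959267-959291 (minus, *snu2*), chrII:467294-467363 (minus, *snu4*), chrII:3237052-3237173 (plus, *snu5*) and chrII:4239098-4239149 (minus, *snR48*).
after snu1: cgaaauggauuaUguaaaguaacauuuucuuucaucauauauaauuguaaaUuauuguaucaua
after snu2: aacuucguacauUgauagugugugg
after snu4: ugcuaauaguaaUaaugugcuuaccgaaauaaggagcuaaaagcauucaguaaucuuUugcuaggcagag
after snu5: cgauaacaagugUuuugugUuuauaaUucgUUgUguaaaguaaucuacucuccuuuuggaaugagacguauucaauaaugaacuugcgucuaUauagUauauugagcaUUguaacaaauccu
after snR48: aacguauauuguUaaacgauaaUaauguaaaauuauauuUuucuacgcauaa
*snu6* had no site in its window and is not shown.

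*snu5* had 14 of the 35 sites of the class, which has 21 without it, and 10 of the 18 sites after the 3′ ends. These 10 form runs of 6 sites at 78 to 99 nt and of 4 sites at 158 to 175 nt after the 3′ end. Sites of a run lie close enough to share reads. The first run had 2, 3, 6, 7, 5 and 6 transitions in 16 to 93 reads. The second run had 5, 9, 8 and 6 transitions in 58 to 134 reads. Both runs end on the first U of a UGUA, which is the tetramer known as the Seb1 motif.

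*snu1* had 2 sites after its 3′ end, at 59 nt with 3 transitions in 5 reads and at 98 nt with 3 in 7 reads. *snu2* had 1 at 91 nt with 2 transitions in 16 reads. *snu4* had 2, at 138 nt with 4 transitions in 62 reads and at 183 nt with 4 in 57 reads. The 15 sites after the 4 Pol II-made U RNAs, 10 of them after *snu5*, thus lay 59 to 183 nt after the 3′ end (median 98 nt). None lay in the first 58 nt or in the last 67 nt of the window. In the snoRNA genes 149 sites lay 6 to 250 nt after the nearest 3′ end, with a median of 108 nt and quartiles of 49 and 164 nt.

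The edge of the window did not fall in an empty stretch for every gene. The last sites inside were at 175 nt (*snu5*) and 183 nt (*snu4*), and the first outside were at 256 nt (*snu4*, 6 transitions in 95 reads), 270 nt (*snu4*, 7 in 82 reads) and 273 nt (*snu2*, 5 in 109 reads).

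*snR48* lies in the intron of *rps3*, a ribosomal protein gene on the same strand, between exons of 49 and 827 nt. Its 3 sites, at 24, 34 and 51 nt after its 3′ end with 6 transitions in 18 reads, 3 in 11 and 2 in 12, all lie in that intron of 252 nt. *snR48* also starts 98 nt after the 3′ end of the protein-coding gene *fkh2* on the same strand. All 3 sites lie within 250 nt after that end, the first at 196 nt. Extended snR48 RNA, *rps3* precursor RNA and extended *fkh2* RNA cannot be told apart there.

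By depth the sites in the snRNAs and the sites after them did not overlap. In the RNAs the lowest, median and highest coverage were 276, 1298 and 8203 reads. After the 3′ ends they were 5, 52.5 and 134 reads. Transitions ran from 10 to 545 (median 38) in the RNAs and from 2 to 9 (median 4.5) after them. As a result 1601 of the 1685 transitions (95.01%) lay in the RNAs, but 17 of the 35 sites (48.6%, interval 33.0 to 64.4%). Without *snu2* this share of sites was 29.2%. In the snoRNA genes 53.6% of the transitions and 120 of 269 sites (44.6%, interval 38.8 to 50.6%) lay in the genes.

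**Figure D3:**
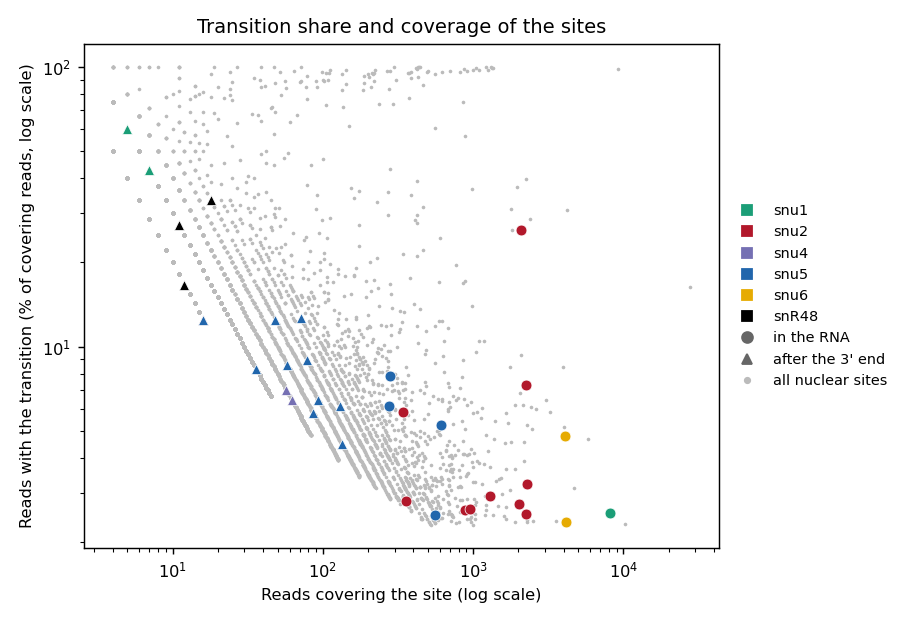
Transition share of each site in percent of its covering reads (y axis, log scale) against the covering reads (x axis, log scale); grey dots are all 15789 nuclear sites, coloured circles are sites in the snRNAs and triangles are sites after their 3′ ends. All circles have 276 reads or more and most lie near the lower border of the cloud, with uridine 33 of U2 at 26.2% far above it.

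Deep sites passed the call with small transition shares. In the snRNAs the median share was 2.93%, and 9 of the 17 sites (52.9%, interval 31.0 to 73.8%) had fewer than 3% of their reads with the transition. The lowest share among the nuclear sites of at least 276 reads was 2.30%. Of the 589 other nuclear sites with at least 276 reads, 168 (28.5%, interval 25.02 to 32.3%) were under 3%, with a median share of 3.71%. Of the 36 snoRNA sites at this depth 13 (36.1%, interval 22.5 to 52.4%) were under 3%. The sites under 3% are uridine 34 of U1, 6 of the 10 sites of U2, uridine 76 of U5 and uridine 11 of U6. Deeper sites of the list had lower shares, with a median of 18.2% at all nuclear sites and 3.70% at the 606 of at least 276 reads. Every listed site had at least 2 transitions, and this minimum sets a higher floor for the share at shallow sites than at deep ones. What sets the lowest share at deep sites was not tested, nor was the part of sequencing errors in the lowest shares.

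Sites marked 17 of 271 uridines in the snRNAs (6.27%, interval 3.95 to 9.82%), compared with 2.81% (2.36 to 3.35%) of 4267 uridines in snoRNA genes and 0.249% (0.244 to 0.255%) of 3373659 in protein-coding genes. The snRNA value rests on U2, and without it the share was 3.54% (1.72 to 7.12%), an interval that holds the snoRNA value. After the 3′ ends the share was 18 of 602 uridines (2.99%, interval 1.90 to 4.68%) for the snRNA genes, 2.91% (2.48 to 3.40%) for the snoRNA genes and 0.637% (0.612 to 0.662%) for the protein-coding genes. The value after the 3′ ends rests on *snu5*, and without it the share was 1.58% (0.803 to 3.09%). Without *snR48* the shares were 7.02% (4.43 to 11.0%) of 242 uridines in the RNAs and 2.96% (1.80 to 4.82%) of 507 after them. The shares depend on how much RNA each class gives, the sites of an RNA are not independent, and no test of the differences was made.

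**Figure D4:**
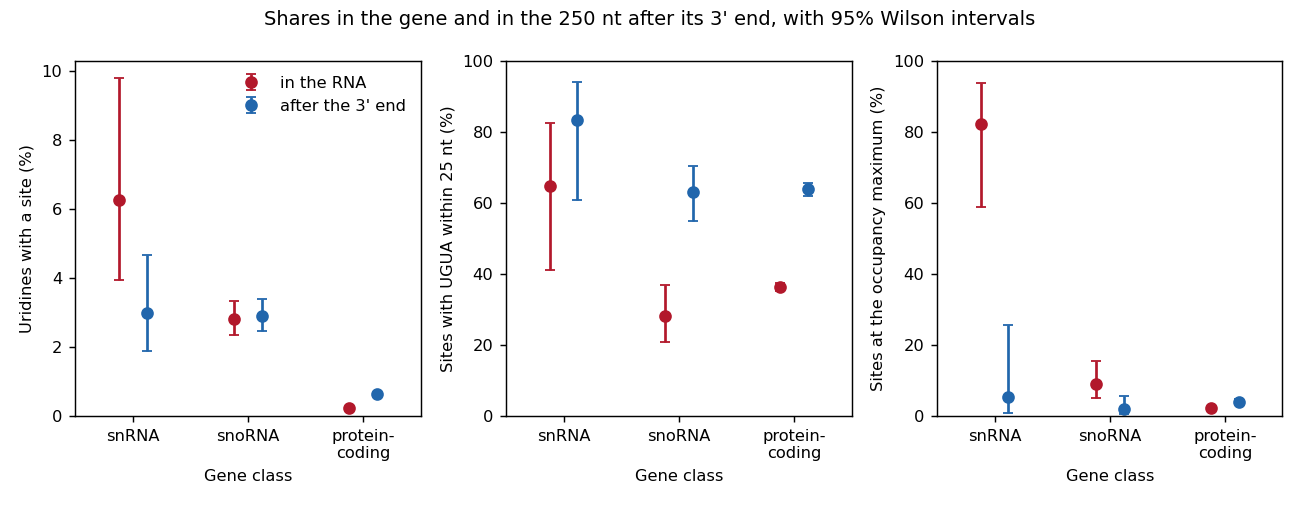
Share of uridines with a site, share of sites with UGUA within 25 nt and share of sites at the occupancy maximum (y axes, percent) for snRNA, snoRNA and protein-coding genes; red points are in the gene, blue points in the 250 nt after its 3′ end, and bars are 95% Wilson intervals. The red snRNA point lies above the other red points in each panel, at 6.27%, 64.7% and 82.4%.

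The occupancy sets the transitions of a site against the RNA-Seq reads there and has a maximum of 1. In the snRNAs 14 of 17 sites (82.4%, interval 59.0 to 93.8%) were at this maximum, compared with 9.17% (5.20 to 15.7%) of the 120 sites in snoRNA genes and 2.20% (1.91 to 2.54%) of the sites in protein-coding genes. Of these 14 sites 8 lie in U2, 3 in U5, 2 in U6 and 1 in U1, and the sites of an RNA are not independent. After the 3′ ends 1 of 18 snRNA sites was at the maximum, the site of *snu1* at 98 nt, and the median occupancy was 0.202. The maximum means that the RNA-Seq reads did not exceed the transitions. Read in this way, uridine 12 of U2 had at most 10 RNA-Seq reads beside 356 PAR-CLIP reads, uridine 33 of U2 at most 545 and uridine 11 of U6 at most 99. Below the maximum the occupancies gave 70 RNA-Seq reads at uridine 44 of U2, 108 at uridine 54 and 212 at uridine 76 of U5. After the 3′ ends of *snu1* to *snu5* they gave 5 to 70 reads. At the maximum the RNA-Seq coverage has only this upper bound, and its part in the shares at the maximum was not tested. Among the other nuclear sites of at least 276 reads 32.8% (29.1 to 36.7%) were at the maximum, above the 5.74% of all nuclear sites. Of the 36 sites in snoRNA genes at this depth, 1 was (2.78%, interval 0.492 to 14.2%). In the snoRNA genes the share thus did not rise with depth, as it was 9.17% at all depths.

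UGUA was searched on the strand of the site within 25 nt on each side. It was found at 26 of the 35 sites (74.3%, interval 57.9 to 85.8%), compared with 128 of the 269 snoRNA sites (47.6%, interval 41.7 to 53.5%) and 43.4% of all nuclear sites. Within 10 nt the shares were 37.1% (interval 23.2 to 53.7%), 34.9% (29.5 to 40.8%) and 30.8%, so that the snRNA and snoRNA intervals overlapped. Without *snR48* UGUA was found within 25 nt at 23 of 32 sites (71.9%). Of all uridines of the nuclear genome 21.3% had UGUA this close. In the snRNAs 11 of 17 sites (64.7%, interval 41.3 to 82.7%) had it, against 26.2% of all 271 uridines in these RNAs. After the 3′ ends 15 of 18 sites (83.3%, interval 60.8 to 94.2%) had it, against 35.2% of the 602 uridines there. With UGUA within 10 nt, 4 of 17 sites in the RNAs had it (23.5%, interval 9.56 to 47.3%), an interval that holds the 12.2% of their uridines. After the 3′ ends 9 of 18 had it within 10 nt (50.0%, interval 29.0 to 71.0%), against 16.4% of the uridines there. The sites with UGUA within 25 nt share few copies of the motif. Of the 11 sites in the RNAs 10 are those of U2 around 1 UGUA, and 10 of the 15 sites after the 3′ ends are those of *snu5*.

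The members' regions hold 18 UGUA, and 9 of them had a site close by. In the RNAs these were 3 of 5 copies, and after the 3′ ends 6 of 13. The copy at base 46 of *snu6*, counted in the RNAs, begins on the last base of the first exon and runs into the intron. Copies without a site include the 3 after *snu4*, at 29, 65 and 91 nt, and the 2 of *snu6*. The first U of UGUA was itself crosslinked at 4 copies, shown here with 12 nt on each side and UGUA in capitals, because they place the motif and the crosslink at the same base. They lie at chrII:3020400-3020427 (plus, *snu1*), chrI:959509-959536 (minus, *snu2*), chrII:3237073-3237100 (plus, *snu5*) and chrII:3237149-3237176 (plus, *snu5*).
after snu1: cgaaauggauuaUGUAaaguaacauuuu
U2, from base 21: gcuuagaucaagUGUAguaucuguucuu
after snu5, first run: uauaauucguugUGUAaaguaaucuacu
after snu5, second run: uauauugagcauUGUAacaaauccuaac
The site in U2 had 545 transitions, the site after *snu1* had 3 and the sites after *snu5* had 6 each. Per site this was 4 of 35 (11.4%, interval 4.54 to 26.0%), close to the 14.5% (10.8 to 19.2%) of snoRNA sites and the 13.1% (12.5 to 13.6%) of all nuclear sites.

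The stretches after *snu1* and *snu5* share a run of 10 bases that starts with the crosslinked UGUA, 59 and 99 nt after the 3′ end. It is the longest run that any pair of the shown stretches has in common, and it was singled out after the sequences were seen.
Shared run: uguaaaguaa
The same run occurs in the 250 nt after 26 of the 12574 genes (0.207%), *snu1* and *snu5* included. None of the 66 snoRNA genes has it, but they are too few to judge so rare a run. UGUA alone occurs after 78.3% of all genes.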

How the data were processed

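For each crosslink site of the PAR-CLIP library, the authors deposited 2 raw counts, one of T-to-C transition reads and one of covering reads. The deposited p-value was not used here. The deposited occupancy is the authors' ratio. At all 15824 sites it is the transition count over a whole number (relative tolerance 1e-06), which was taken as RNA-Seq coverage, with a maximum of 1. The submitters' processing notes name Bowtie 1.1.1, SAMtools and the build ASM294v2, and the thresholds of the site calling are not given in the sources used here. Counts may hold PCR duplicates, and intervals cover counting error only.

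Of 30 samples in the series, 1 had a file used here. Only sites on the nuclear chromosomes were used, without 34 mitochondrial sites and 1 on another contig. Sites were placed in genes of the RefSeq annotation of ASM294v3 with Python 3.11.15, numpy 2.4.6 and pandas 2.3.3. The placing of sites and the 95% Wilson intervals were tested on simulated data. A motif counted as near a site if it lay whole within 25 nt. Sites up to 25 nt apart formed a run. All 6 genes and all their sites are named, other genes only where they overlap or adjoin a member. The members and gene lists were chosen with earlier results of these data known. With 1 library no test between groups was made. Alternatives covered the window, the coverage, the transitions, the motif and the genes.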

Additional observations from a re-analysis of the deposited data

How the results depend on the processing

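Of 58 alternatives, 50 left a count within 1.5 times or a share within its 95% interval. Leaving out *snu5* lowered the 35 sites to 21. The share of sites in the RNAs was 95.01% with sites weighted by transitions and 29.2% without *snu2*, both outside the interval of 33.0 to 64.4%. The share with UGUA nearby was 37.1% with the motif within 10 nt, where the snoRNA sites had 34.9% and all nuclear sites 30.8%. With GUAG in place of UGUA the share was 25.7%, with 25.7% of the snoRNA sites and 25.2% of all nuclear sites, and with GUA it was 91.4%, with 76.6% and 72.6% of them. Each gene was also left out of the shares of uridines, which was chosen after seeing the data. The share in the RNAs was then 3.54% without *snu2* and the share after the 3′ ends 1.58% without *snu5*, both below their intervals. The share at the occupancy maximum over all 35 sites was 42.9% (interval 28.0 to 59.1%) and stayed within this interval under the 8 alternatives run for it. No alternative was run for the sites in the RNAs alone. Windows of 100 and 500 nt gave 29 and 44 sites. The sites after the 3′ ends rest on 2 to 9 transitions each, so single sites there are poorly determined.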

Other observations

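On the strand opposite to *snu2*, *seb1* itself starts 329 nt from the *snu2* start and runs away from it. *snu2* had 11 sites with 1014 transitions from its start to 250 nt after its 3′ end, and the first 250 nt of *seb1* had 20 sites with 288 transitions. Within 1000 nt before the starts of the 6 genes the opposite strand held 42 sites, and the strand of the genes held 2. Of the 42, 30 lie beside *snu2*, and all 30 are within *seb1*.

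Beyond the window and up to 500 nt after the 3′ ends, the sense strand held 9 sites with 35 transitions, 5 of them after *snu2*, 3 after *snu4* and 1 after *snu1*. None lay there after *snu5*, which had 10 sites in the first 250 nt, nor after *snu6*.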
